A study of Mus musculus with 11 samples.

Results

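The 9 genes described here are Cdx2, Elf5, Gata3, Gata2, Tfap2c, Tfap2a, Fgfr2, Hand1 and Esx1, which mark or build the trophoblast lineage. They were chosen by name, as the coding RefSeq rows of the deposited tables that map to these symbols. Each gene had 1 row, so they are 9 of the 48942 features listed for the Dcr libraries and 9 of the 39889 listed for cMyc. RNA was sequenced from embryonic stem cells (ESCs), mouse strain 129S4/SvJae, kept on gelatin with no feeder layer, to compare lncRNA and mRNA expression with and without Dicer. Wild-type cells (Dcr WT) gave 2 libraries and knockout lines without Dicer (Dcr KO lines 1, 3 and 4) gave 3. A further table held 1 library of each cMyc genotype, floxed (cMyc flox) and knockout (cMyc KO). All were poly(A)-selected directional libraries. No label gives the Dicer or cMyc allele in more detail, or says that the wild-type replicates were separate cultures.

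Trophoblast is the first lineage to leave the embryo proper and forms the placenta. In the blastocyst its founders, the trophectoderm, switch on the homeobox gene Cdx2, the GATA factor gene Gata3 and the AP-2 factor genes Tfap2c and Tfap2a, while the inner cells that give rise to ESCs keep Pou5f1. Trophoblast stem cells need FGF4, which they sense through the receptor encoded by Fgfr2, and an ETS factor, Elf5, that ESCs hold silent by DNA methylation. Hand1 and Esx1 act later, in giant cells and the labyrinth. Dicer cuts microRNA precursors into their mature form, so its loss removes microRNAs. The microRNAs below, shown because they belong to the cluster that dominates mouse ESCs, share a seed, the bases 2 to 8 that pair with target mRNAs and are in capitals here (RefSeq, GRCm38.p6). They were not measured in these poly(A) libraries, and no target site was searched.
miR-291a-3p: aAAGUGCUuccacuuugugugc
miR-294-3p: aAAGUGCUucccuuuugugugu

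The promoters of 7 of the 9 genes were matched by symbol in a RefSeq table of build GRCm38.p6, with 10 windows in all, since Elf5, Gata2 and Tfap2a have several starts. The 250 bases before each start were searched on both strands for 4 motifs. The AP-2 letters GCCNNNGGC, whose factors Tfap2c and Tfap2a encode, were in 3 of the 10 windows, against 13.7% of 32851 windows of the same length. They occurred 3 times before Gata3 and 1 time each before Cdx2 and 1 of the Gata2 starts. G and C made up 70.0%, 55.2% and 74.0% of these windows in that order, against a median of 52.4% over all windows. The letters are rich in G and C, and windows of like content were not compared. The Myc and Max E-box CACGTG, held by 6.02% of all windows, occurred in 1 of the 10 windows, that of Esx1. The GATA core AGATAA (9.99% of all windows) and the ETS core GAGGAAGT (2.44%) were in 0 of the 10 windows. Such matches describe letters and do not show binding. The windows below belong to the 3 genes with the largest changes and to Esx1, and capitals mark AP-2 or E-box letters.
Gata3 (chr2:9878601-9878850, minus strand): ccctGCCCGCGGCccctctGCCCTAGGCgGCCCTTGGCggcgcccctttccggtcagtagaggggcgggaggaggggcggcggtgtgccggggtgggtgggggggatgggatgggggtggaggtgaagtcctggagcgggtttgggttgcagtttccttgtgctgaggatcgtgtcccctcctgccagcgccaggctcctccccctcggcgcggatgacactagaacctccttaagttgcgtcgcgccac
Cdx2 (chr5:147307250-147307499, minus strand): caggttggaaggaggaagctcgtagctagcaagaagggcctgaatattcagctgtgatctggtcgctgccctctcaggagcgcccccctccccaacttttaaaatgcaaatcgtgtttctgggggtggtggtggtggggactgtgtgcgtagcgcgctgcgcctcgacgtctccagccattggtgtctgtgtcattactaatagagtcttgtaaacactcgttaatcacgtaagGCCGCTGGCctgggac
Elf5, upstream start (chr2:103411848-103412097, plus strand): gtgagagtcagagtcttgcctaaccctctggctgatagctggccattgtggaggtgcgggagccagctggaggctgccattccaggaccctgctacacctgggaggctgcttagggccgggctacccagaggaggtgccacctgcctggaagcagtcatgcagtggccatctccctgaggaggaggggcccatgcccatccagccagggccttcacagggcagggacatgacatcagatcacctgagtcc
Elf5, downstream start (chr2:103423818-103424067, plus strand): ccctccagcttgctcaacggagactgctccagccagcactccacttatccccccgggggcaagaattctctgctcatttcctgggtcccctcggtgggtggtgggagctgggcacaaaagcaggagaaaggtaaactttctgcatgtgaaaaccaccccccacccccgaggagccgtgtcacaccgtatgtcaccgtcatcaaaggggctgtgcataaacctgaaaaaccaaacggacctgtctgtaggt
Esx1 (chrX:137120327-137120576, minus strand): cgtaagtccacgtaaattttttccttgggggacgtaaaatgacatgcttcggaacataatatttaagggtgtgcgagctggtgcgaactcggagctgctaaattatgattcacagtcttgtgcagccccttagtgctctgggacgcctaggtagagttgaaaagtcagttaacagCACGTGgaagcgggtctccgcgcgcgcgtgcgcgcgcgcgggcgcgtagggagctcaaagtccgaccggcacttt

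The Dcr libraries held 101815723 to 278006158 recovered reads, the smallest being Dcr WT library 1. The cMyc libraries held 24660365 and 31633011. All values below are the deposited normalised read counts unless another scale is named. Dicer1, the deleted gene, stood at 20131 and 18792 in Dcr WT and at 7743 to 9793 in Dcr KO (log2 fold change −1.17 ± 0.15 SE, limma adjusted p = 0.000556). One value per transcript does not show which exons the remaining Dicer1 reads came from. Myc stood at 470.04 in cMyc flox and 10.87 in cMyc KO. All 9 ESC markers had reads in every RNA library. Between Dcr KO and Dcr WT, 7 of them did not pass the test, which does not show equal levels, Fgf4 rose and Tdgf1 fell. Pou5f1, the factor that opposes Cdx2 in the early embryo, lay between 214178 and 284597 in the Dcr libraries with overlapping groups. Neither of its partners was called, Sox2 at 0.09 (limma adjusted p = 0.626) nor Nanog at 0.48 (limma adjusted p = 0.0958).

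Of the 9 trophoblast genes, 5 were higher in Dcr KO, 1 was lower and 3 did not pass (limma on log2(value + 1), Benjamini-Hochberg adjusted p under 0.05 over all features). For comparison, 16.9% of the 42358 features tested were called higher and 14.8% lower. The 9 genes and all listed genes are coding RefSeq rows. Of the 16322 such rows tested, 3415 were called higher and 3737 lower, with a median log2 fold change of −0.06. All 9 genes passed the filter on low values, which asks that 2 or more libraries reach a value of 1. Elf5, Gata3, Fgfr2, Tfap2c and Esx1 rose, and Cdx2 fell. The values of the 2 genotypes did not overlap for 8 of the 9 genes, Hand1 being the exception, but the groups did not overlap for 57.4% of all features tested either. The median log2 fold change was 0.77 over the 9 genes and 0.08 over all features tested. Each log2 fold change comes from log2(value + 1), so for genes near 0 it is smaller than the true change. Because RNA was taken from whole cultures, fewer cells of a type and less RNA per cell cannot be told apart.

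**Figure D1:**
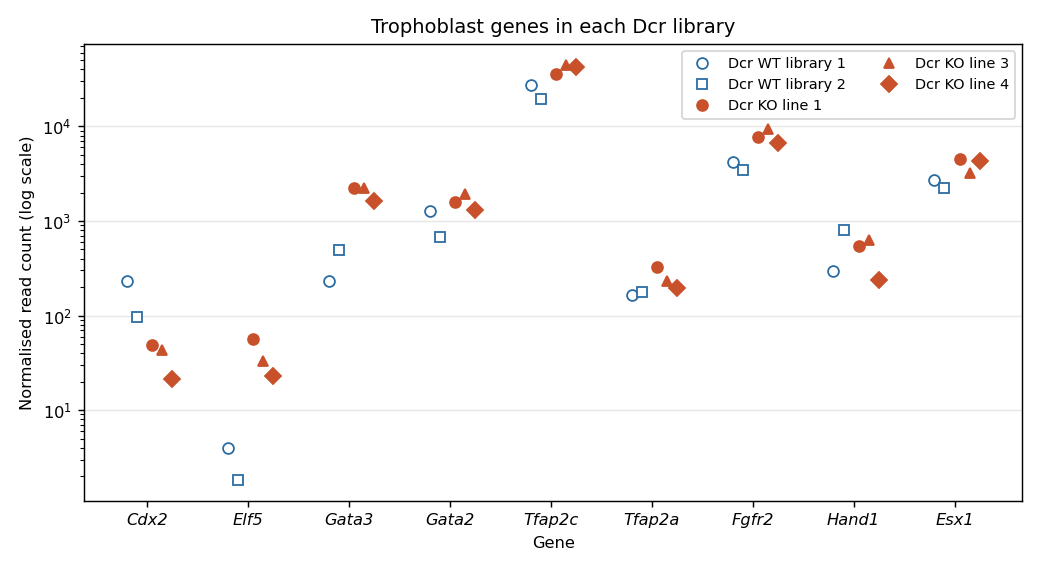
Normalised read count (log axis) of each trophoblast gene in the 5 Dcr libraries; open blue symbols are Dcr WT, filled orange symbols Dcr KO lines. Elf5 and Gata3 lie far higher in all 3 knockout lines, Cdx2 lies lower, and the Hand1 values of the 2 genotypes interleave.

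Cdx2, the homeobox factor that specifies trophectoderm, was scarce in wild-type ESCs and scarcer without Dicer. The 2 wild-type libraries gave 231 (library 1) and 95.9 (library 2), and the knockout lines gave 48.8, 42.8 and 21.4 for lines 1, 3 and 4. All knockout lines were below both wild-type libraries, which themselves differed 2.41-fold. The mean fell 4.34-fold, from 164 ± 95.8 (SD, n = 2) to 37.7 ± 14.4 (SD, n = 3), with a log2 fold change of −2.04 ± 0.51 (SE, by limma; adjusted p = 0.0144). These values rest on 115 and 105 reads in the wild-type libraries and 28 to 56 in the knockout lines. The call was lost without Dcr WT library 1 (−1.41, adjusted p = 0.0580) and with line 4 left out (−1.68, adjusted p = 0.0577). It was also lost with no filter on low values (adjusted p = 0.102). Without Dcr WT library 2 the log2 fold change was −2.67. The paralogs Cdx1 and Cdx4, better known from patterning of the body axis, fell too. Cdx1 stood at 811 and 227 in Dcr WT and at 123, 54.2 and 32.9 in Dcr KO (−2.81 ± 0.62, limma adjusted p = 0.00824). Cdx4 stood at 346 and 309 in Dcr WT and at 101, 88.6 and 61.2 in Dcr KO (−1.99 ± 0.31, limma adjusted p = 0.00158). In all 3 Cdx genes line 4 was the lowest library and Dcr WT library 1 the highest. Cdx1 was at −1.89 and −3.72 without Dcr WT libraries 1 and 2 and lost its call without line 4 (−2.38, adjusted p = 0.0506), whereas Cdx4 kept its call without any 1 library.

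Elf5, the ETS factor gene that ESCs hold methylated, was close to absent from wild-type cells and detectable in every knockout line. It had 2 reads in each wild-type library (normalised 4.02 and 1.83) and 64, 43 and 30 reads in Dcr KO lines 1, 3 and 4 (56.8, 32.8 and 23.0). Line 1 was the highest and line 4 the lowest knockout line, and each lay well above both wild-type libraries. The log2 fold change was 3.26 ± 0.65 (SE, by limma; adjusted p = 0.00513), and the pooled reads per library size differed 13.6-fold with a 95% counting interval of 5.19 to 50.6. That interval covers counting error only. With a pseudocount of 10 the log2 fold change was 1.82, and the call held in each of the 14 alternatives tried. Even in Dcr KO, Elf5 made up only 0.131 to 0.285 reads in every 1000000 coding RefSeq reads.

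The epithelial ETS relatives of Elf5 rose with it. Ehf stood at 14.1 and 33.8 in Dcr WT and at 445, 471 and 285 in Dcr KO (4.10 ± 0.41, limma adjusted p = 0.000161; 3.49 and 4.70 without Dcr WT libraries 1 and 2). Elf3, already abundant at 14279 and 8524, reached 24859, 20261 and 23055 (1.04 ± 0.21, limma adjusted p = 0.00578). Its log2 fold change was 1.41 and 0.67 without Dcr WT libraries 1 and 2. With no filter on low values the Elf3 call was lost (limma adjusted p = 0.0779). All 3 knockout lines were above both wild-type libraries for each gene. Ehf is also the next protein-coding gene to Elf5 on the chromosome in the RefSeq annotation, so the genes around them were examined after these values had been seen. Cat, the catalase gene on the other side of Elf5, rose from 24853 and 28674 to between 46334 and 51328 (0.86, limma adjusted p = 0.00173), and Apip, beyond Ehf, rose by 0.61 (adjusted p = 0.0334). Pdhx (0.42, adjusted p = 0.0701), Abtb2 (−0.25, adjusted p = 0.321) and Nat10 (−0.24, adjusted p = 0.285) did not pass.

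Gata3, a zinc finger factor that drives trophectoderm maturation in parallel to Cdx2, had the smallest adjusted p among the 9 genes. Wild-type library 1 gave 229 and library 2 gave 489, against 2229.6, 2239 and 1609 in Dcr KO lines 1, 3 and 4. The knockout lines were close to each other, and the lowest was 3.29 times the higher wild-type value. The mean rose 5.64-fold, from 359 ± 184 (SD, n = 2) to 2026 ± 361 (SD, n = 3), with a log2 fold change of 2.58 ± 0.31 (SE, by limma; adjusted p = 0.000384). The call held in each of the 14 alternatives, with 2.03 and 3.12 without Dcr WT libraries 1 and 2. Gata2, which shares trophoblast targets with Gata3, stood at 1286 and 677 in Dcr WT and at 1601, 1926 and 1311 in Dcr KO. Its groups were separated by a narrow gap and it did not pass (0.77 ± 0.28, limma adjusted p = 0.0602). Gata2 did pass with 2 of the 3 other scalings and with DESeq2, but not with edgeR. Its estimate depended on which wild-type library was kept, at 1.23 with only library 2 and 0.31 with only library 1. Gata2 also did not pass when Dcr KO line 1, 3 or 4 was dropped (limma adjusted p = 0.171, 0.197 and 0.0905 in that order). The RefSeq annotation places 2 lncRNAs over Gata3 and 1 each over Gata2, Tfap2a and Hand1. The sources used here do not give whether counting used strand, so reads of these genes and their overlapping partners may be mixed. The one such lncRNA matched among the Dcr features, 4930412O13Rik over Gata3, had values of only 3.06 to 18.1.

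The ratio of Gata3 to Gata2 within a library, which needs no scaling between libraries, was higher in every knockout line than in either wild-type library. The log2 ratio of Gata3 to Gata2 was −2.48 and −0.47 in Dcr WT and 0.48, 0.22 and 0.30 in Dcr KO. The groups did not overlap. The two-sided exact permutation p used here is the doubled one-sided p, which cannot go below 0.20 with 2 against 3 libraries. That was the value found for this ratio (0.30 after Benjamini-Hochberg adjustment over 3 ratios). Leaving out wild-type library 1 took the difference from 1.81 to 0.80, and leaving out library 2 took it to 2.81. Among the other GATA genes, Gata6 fell (−2.01 ± 0.56, limma adjusted p = 0.0234) and Gata5 fell from 30.2 and 62.1 to at most 3.06 (−3.73 ± 0.69, adjusted p = 0.00383). Gata6 was not called without Dcr WT library 1 (−1.26, adjusted p = 0.0812), Dcr KO line 1 (−1.52, adjusted p = 0.0895) or Dcr KO line 4 (−2.28, adjusted p = 0.0566), and was at −2.76 without library 2. Gata1 (0.46, adjusted p = 0.117) and Gata4 (0.28, adjusted p = 0.306) did not pass.

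**Figure D2:**
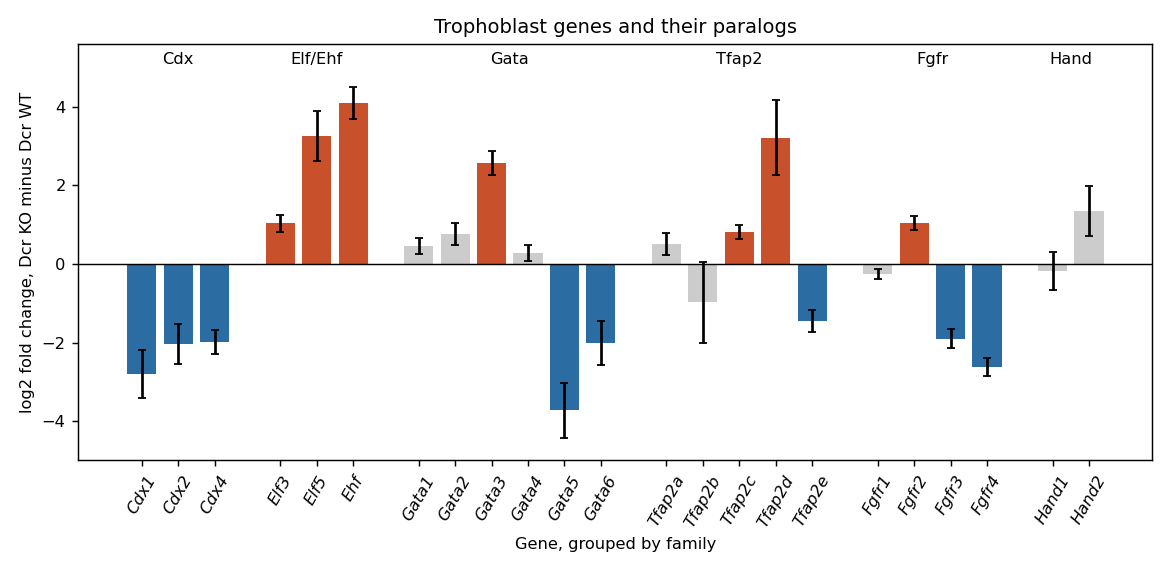
log2 fold change of Dcr KO against Dcr WT, with SE, for the trophoblast genes and their paralogs grouped by family; orange bars were called higher, blue bars lower and grey bars did not pass (limma adjusted p under 0.05). All 3 Cdx genes fell and all 3 Elf and Ehf genes rose, while the Gata, Tfap2 and Fgfr families held genes of both directions; the Tfap2d bar is no test, since both wild-type libraries were at 0 and the gene passed the filter only through the knockout lines.

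Tfap2c, the AP-2 factor gene that trophoblast and germ cells need, was abundant in both genotypes and rose. It stood at 27382 and 19597 in Dcr WT, and at 35631, 44888 and 42779.6 in Dcr KO lines 1, 3 and 4. Every knockout line exceeded both wild-type libraries, and the mean rose 1.75-fold, from 23489 ± 5505 (SD, n = 2) to 41099 ± 4852 (SD, n = 3). The log2 fold change was 0.82 ± 0.18 (SE, by limma; adjusted p = 0.00774), and the call was lost with no filter on low values (adjusted p = 0.0724), as it was with Dcr KO line 3 left out (0.75, adjusted p = 0.0523). Tfap2a, which overlaps in function with Tfap2c in the trophectoderm, stood at 167 and 177 in Dcr WT and at 327, 234 and 194 in Dcr KO. It did not pass (0.51 ± 0.29, limma adjusted p = 0.198), and the spread among knockout lines reached 1.68-fold. The log2 ratio of Tfap2c to Tfap2a was 7.35 and 6.78 in Dcr WT and 6.77, 7.58 and 7.77 in Dcr KO, so the groups overlapped (exact permutation p = 0.60, two-sided; also 0.60 adjusted over the 3 ratios). Of the other AP-2 genes, Tfap2e fell from 255 and 355 to between 98.0 and 117 (−1.46 ± 0.28, limma adjusted p = 0.00443), and Tfap2b, at 4.02 or below in every library, did not pass. Tfap2d was at 0 in both wild-type libraries and at 10.6, 16.0 and 3.06 in Dcr KO. Its 37 reads pooled over the knockout lines gave a bound of 4.89-fold against a floor of 3 reads over the wild-type group. That bound leaves out counting error in the knockout reads and the spread between lines. Since Tfap2d passed the filter on low values only through the knockout lines, no test is given for it.

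Fgfr2, the receptor through which trophoblast stem cells respond to FGF4, rose in every knockout line. It stood at 4215 and 3459.8 in Dcr WT, and at 7704, 9404 and 6638 in Dcr KO. The groups were well apart relative to their spread, with a 2.06-fold rise of the mean from 3837 ± 534 (SD, n = 2) to 7915 ± 1395 (SD, n = 3). The log2 fold change was 1.04 ± 0.18 (SE, by limma; adjusted p = 0.00279), and the call held in each of the 14 alternatives. The other receptors of the family did not follow. Fgfr3 fell from 895 and 664 to between 171 and 243 (−1.90 ± 0.25, limma adjusted p = 0.000659). Fgfr4 fell from 1139 and 1146 to between 156 and 212 (−2.63 ± 0.22, adjusted p = 7.19e-05), and Fgfr1, the main receptor of ESCs, did not pass (−0.25, adjusted p = 0.180). The log2 ratio of Fgfr2 to Fgfr1 was −2.95 and −3.05 in Dcr WT and −1.76, −1.51 and −1.85 in Dcr KO, with groups apart. Its exact permutation p, two-sided by doubling, was 0.20, the smallest this test can give (0.30 adjusted over the 3 ratios). Among 11 genes of the FGF, BMP and Nodal inputs of trophoblast stem cells, a list that includes the Fgfr genes, 4 rose and 4 fell, with a median of −0.25. Fgf4 itself rose by 0.56 (adjusted p = 0.0123), and Bmp4, the ligand used to push stem cells toward trophoblast, fell from 1211 and 1717 to between 145 and 239.8 (−2.85 ± 0.28, adjusted p = 0.000139). The number of these genes called higher was 2 without Dcr KO line 1 and 2 without line 3.

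Hand1 and Esx1, which act in the differentiating placenta, behaved differently from each other. Hand1, a bHLH factor of giant cells, gave 296 in wild-type library 1 and 811 in library 2, against 540.3, 629 and 237 in Dcr KO lines 1, 3 and 4. The wild-type values enclosed most of the knockout values, and Hand1 did not pass (−0.18 ± 0.48, limma adjusted p = 0.800). Its fitted direction turned without Dcr WT library 2 (0.55) and without Dcr KO line 4 (0.25). Its paralog Hand2, at 6.39 to 46.1, did not pass either (1.34, adjusted p = 0.137). Esx1, an X-linked homeobox gene of the labyrinth, stood at 2738 and 2260.3 in Dcr WT and at 4507, 3216 and 4275 in Dcr KO. All knockout lines were higher, and the mean rose 1.60-fold (log2 change 0.67 ± 0.19, limma adjusted p = 0.0243). The Esx1 call was lost when Dcr KO line 1 was left out (0.58, adjusted p = 0.103), as it was without line 4 (0.61, 0.0934) and without Dcr WT library 2 (0.53, 0.0598), and also with no filter on low values (adjusted p = 0.10). The annotation lists 9 pseudogenes within 30 kb of Esx1, and whether they share its reads was not tested.

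**Figure D3:**
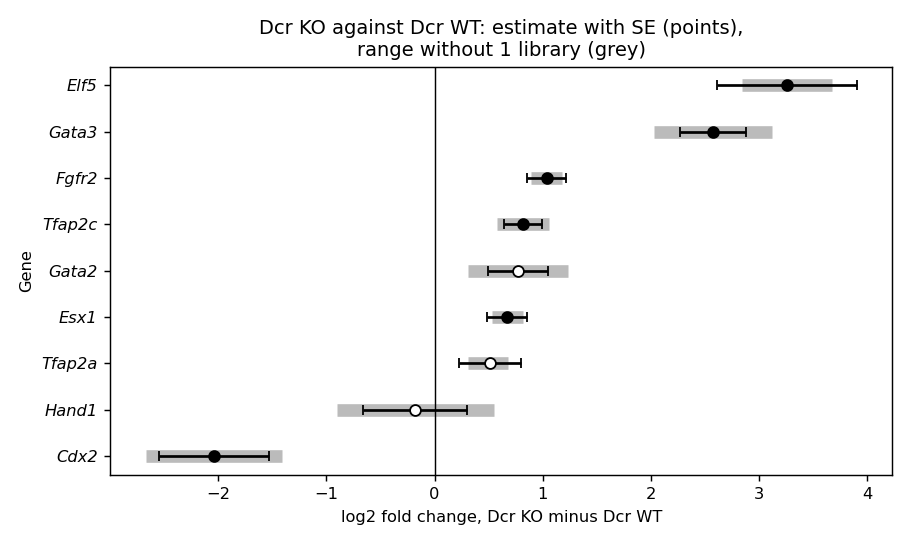
log2 fold change of Dcr KO against Dcr WT for each trophoblast gene, with SE; filled points passed the test, open points did not, and grey bars span the estimates with 1 library left out. Of the 9 grey bars, that of Hand1 alone crosses 0.

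The wider trophoblast lists held genes of both directions, as did coding RefSeq rows as a whole (3415 higher and 3737 lower of 16322 tested). Of 21 trophoblast transcription factors, 8 of which are among the 9 genes, 9 rose and 4 fell, with a median log2 fold change of 0.53. Without Dcr KO line 4 the number called lower was 2. The largest rises outside the 9 genes were in Rhox9, from 390.3 and 682 to between 5617 and 6485 (3.54 ± 0.23, limma adjusted p = 2.69e-05), and Rhox6 (3.29 ± 0.31, adjusted p = 0.000111; 2.65 and 3.93 without Dcr WT libraries 1 and 2). These placental homeobox genes lie in an X-linked multigene family, so the split of reads between members is uncertain. Eomes, the T-box factor that trophoblast stem cells require, did not pass (−0.82, adjusted p = 0.105). Of 16 inducers and effectors of trophectoderm, 7 rose and 1 fell (median 0.27), with Tead4 counted in both this list and that of factors. Tead4, the factor that activates Cdx2 in the embryo, rose from 10771 and 9749 to between 29829 and 30837 (1.56 ± 0.13, adjusted p = 6.85e-05), while Cdx2 fell. Lats2, a Hippo kinase that restrains the Tead4 partner Yap1, rose 7.01-fold and the water channel gene Aqp3 rose from 11004 and 3715 to between 28968 and 41490.1 (1.57 and 3.14 without Dcr WT libraries 2 and 1). Amot, a scaffold of the same pathway, fell (−1.70 ± 0.27, adjusted p = 0.00185). The number of inducers called lower went from 1 to 3 with wild-type library 1 left out, and to 2 with library 2 left out.

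Genes listed for differentiated trophoblast and placenta held calls in both directions, though more fell than rose. Of 20 placental genes, 13 were tested, of which 1 rose, 5 fell and 7 were not called, with a median of −0.92. Tpbpa, Prl3b1, Prl2c2, Prl4a1, Ctsq and Ctsj, all markers of differentiated trophoblast, were at 0 in all 5 Dcr libraries. Plac8 fell from 1994 and 3635 to between 35.1 and 54.3 (−5.87 ± 0.32, limma adjusted p = 1.61e-05). Phlda2, an imprinted gene that limits placental growth, fell from 27505 and 16697 to between 981 and 1468 (−4.18 ± 0.24, adjusted p = 1.98e-05), and Syna, which encodes the fusion protein syncytin A, fell from 266 and 257 to between 46.6 and 82.6. The gene that rose was Plet1, from 3265 and 3721 to between 13358 and 14587 (2.01 ± 0.14, adjusted p = 3.38e-05). Of 15 paralogs of the 9 genes, Ehf and Elf3 rose and 7 fell. Tfap2d is left out of these counts, since it passed the filter only through the knockout lines. The median of the 15 paralogs was −0.98, also with Tfap2d at its bound.

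Markers of other cell types moved with genotype as well, and their part in the values above was not tested. Of 8 fibroblast markers, 7 were tested, and all 7 fell in Dcr KO. Their summed level was 30353 and 42494 in Dcr WT and 2471 to 6412 in Dcr KO, and Postn had reads in Dcr WT library 2 alone of the 5 Dcr libraries. Of 6 early mesoderm markers 1 rose and 4 fell, and their sum went from 2429 and 3623 to between 6295 and 10841, of which Kdr made up 4771 to 9291 in Dcr KO. Of 6 primitive endoderm markers 0 rose and 2 fell (sums of 3046 to 5637 and 2606 to 3541). These limma counts were also 0 and 2 at an unadjusted p under 0.05, with edgeR and with DESeq2. Of 7 keratinocyte and epithelial markers listed there 2 rose and 2 fell, with sums of 17535 and 22449 in Dcr WT and 20557 to 22814 in Dcr KO. Trp63, a keratinocyte and trophoblast stem factor gene, rose but stayed low, at 18.1 and 15.5 in Dcr WT and 64.8, 127 and 96.4 in Dcr KO. Of 5 neural crest markers only Sox10 was called, and it fell (sums of 4957 and 6417, and 5962 to 8275). None of these lists was entirely at 0 in any group.

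The 3 knockout lines were not alike in these genes. Line 4 had the lowest knockout value for 7 of the 9 genes and the highest for 0, the exceptions being Tfap2c and Esx1. How often line 4 was the lowest knockout line over all features was not computed, so this may not be particular to these genes. The largest spreads among lines were those of Hand1 (2.65-fold), Elf5 (2.47-fold) and Cdx2 (2.28-fold), and the smallest was that of Tfap2c (1.26-fold). Line 4 was also the lowest library for the trophectoderm keratin genes Krt8, Krt18 and Krt7, at 7809, 4627 and 733. The wild-type libraries differed 2.74-fold in Hand1 and 2.41-fold in Cdx2, in opposite directions, and 1.06-fold in Tfap2a. Krt7 followed the Hand1 order, at 949.5 in library 1 and 2381 in library 2.

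Over the 5 Dcr libraries, some genes followed the leading trophoblast genes closely. Likeness was the root mean square distance between centred log2 values, among coding RefSeq genes with a mean of at least 100. It selects genes with the same difference between genotypes, so no test is given. The 3 nearest to Gata3 were Ttn (distance 0.10), Tlr5 (0.12) and the T-box gene Tbx20 (0.13). Nearest to Elf5 were Ccnd2, the cyclin D2 gene (0.28), Cdh13 (0.30) and the homeobox gene Hmx3 (0.32). Nearest to Cdx2 were the integrin gene Itgam (0.22), Fam131c (0.25) and Cox7a2l (0.25). The last, a respiratory chain gene, stood at 31043 and 20028 in Dcr WT and at 7441, 6114 and 4255 in Dcr KO.

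Loss of cMyc was examined in a single library per genotype, so no test was possible and intervals cover counting error only. Of the 9 genes, only Cdx2 and Elf5 had a ratio of cMyc KO to cMyc flox of at least 1.5, a ratio reached upward by 8.96% of the 20470 features with at least 10 reads. Both rest on few reads: Cdx2 had 7 and 14 reads (ratio 1.72, 95% interval 0.649 to 5.03) and Elf5 had 4 and 9 (1.93, 0.540 to 8.60). Gata2 was at 194 in cMyc flox and 284 in cMyc KO, a ratio of 1.46 (1.22 to 1.76), and 1.33 to 1.36 with other scalings. Hand1 had a ratio of 1.18 (1.03 to 1.36), but 1.10 (0.956 to 1.26) with factors from coding RefSeq rows, which shift every log2 ratio by −0.11. Gata3 (1.09, 0.872 to 1.36), Tfap2c (1.05, 0.991 to 1.12), Tfap2a (1.45, 0.796 to 2.70), Fgfr2 (1.08, 0.979 to 1.18) and Esx1 (0.983, 0.821 to 1.18) had intervals that include 1. In Dcr KO, where Myc fell to 443 to 1253 from 10984 and 7478, the same genes had the changes given above; no test across the tables was made.

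On a common scale of reads per 1000000 coding RefSeq reads, the floxed cMyc cells did not resemble Dcr WT cells for every trophoblast gene. The tables were normalised separately, no label ties the cMyc cells to the Dcr line, and their libraries are single-end while the Dcr libraries are paired-end, so the values are only set side by side. Gata3 was at 1.27 and 2.92 in Dcr WT, 9.19 to 11.6 in Dcr KO, and 9.99 and 10.1 in cMyc flox and cMyc KO. Hand1 was at 1.63 and 4.84 in Dcr WT, 1.36 to 3.27 in Dcr KO, and 24.1 and 26.5 in the cMyc cells. Fgfr2 was at 23.3 and 20.7 in Dcr WT, 37.9 to 48.8 in Dcr KO, and 54.0 and 53.9 in the cMyc cells. Elf5 was at 0.0222 and 0.0109 in Dcr WT, 0.131 to 0.285 in Dcr KO, and 0.272 and 0.488 in the cMyc cells. In all, 7 of the 9 genes were higher in cMyc flox than in both Dcr WT libraries. The share of all features for which this holds was not computed, so the count shows nothing particular to these genes. Those not given above were Gata2 (12.5 against 7.10 and 4.05), Tfap2a (1.29 against 0.922 and 1.06) and, by little, Esx1 (15.6 against 15.1 and 13.5). Tfap2c, at 136 in cMyc flox, lay between the Dcr WT libraries (151 and 117), and Cdx2, at 0.476, lay below both (1.28 and 0.572).

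**Figure D4:**
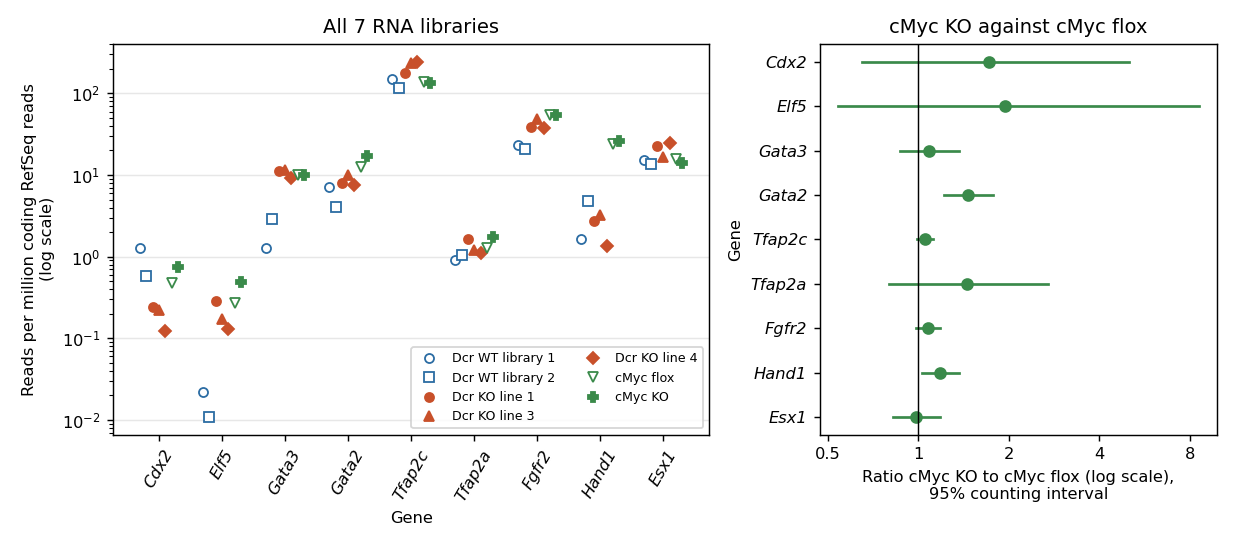
Left, reads per 1000000 coding RefSeq reads (log axis) of each trophoblast gene in all 7 RNA libraries; right, ratio of cMyc KO to cMyc flox with its 95% counting interval (log axis). Of the 9 genes, 7 are higher in the floxed cMyc library than in both Dcr WT libraries, Tfap2c and Cdx2 being the exceptions. The share of all features for which this holds was not computed. Of the 9 ratios, those of Gata2 and Hand1 have intervals above 1 as deposited.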

How the data were processed

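The deposited signal is a normalised read count: in each column 100% of values were whole multiples, within 0.01 read, of what 1 read is worth there. Per the submitters' processing notes, the authors used TopHat, Bowtie, DESeq and build mm9, with no role or version stated; which tool counted reads is not stated there. No value column lacked a sample (0 in each table). RefSeq identifiers took symbols from a GRCm38.p6 annotation (coding rows matched: 19362 of 19683 for Dcr, 16246 of 16484 for cMyc). Dcr KO was compared with Dcr WT on the whole table with limma 3.58.1 (R 4.3.3, trend) on log2(value + 1), for features at 1 or more in at least 2 libraries. No label says the wild-type libraries came from separate cultures, so p-values reflect only how these samples vary, which may be technical. The alternatives were pseudocounts, filters, scalings, edgeR 4.0.16 and DESeq2 1.42.0 on recovered reads, and leaving out each library; edgeR called 6594 features higher and 6466 lower. The limma step was run on simulated data with a fixed dispersion. Changes were simulated only in features above a minimum mean read count, so genes with as few reads as Elf5 were not covered. The members and gene lists were chosen with earlier results of these data known. Genes named beyond the 9 are the up to 4 called genes with the largest change in each list, all called paralogs, the ESC factors and the 3 nearest patterns; others were named after their values were seen. The 4 chromatin samples were not analysed here. Levels are not compared between genes, since no transcript lengths were used.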

Additional observations from a re-analysis of the deposited data

How the results depend on the processing

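Of 6 called genes, Elf5, Gata3 and Fgfr2 kept their call in all 14 alternatives; Hand1 alone changed direction, to 0.25 without Dcr KO line 4 and 0.55 without Dcr WT library 2, with −0.91 to 0.55 over all libraries left out. With no filter on low values, limma called 3 of the 9 genes higher and 0 lower (Cdx2 had an unadjusted p of 0.0285; edgeR and DESeq2, run on the filtered features, called it lower), and the cause was not tested. In that setting 4169 features in all rose and 3967 fell, 4 inducers of trophectoderm rose and 0 fell, 2 FGF and BMP inputs rose and 2 trophoblast factors fell. With DESeq2, 2 placental genes rose, and with total scaling 2 inducers fell. Leaving out 1 library gave 3782 to 8022 features higher and 3847 to 5935 lower; 0 to 1 of the 9 genes lower; 2 to 5 FGF and BMP inputs higher; 2 to 4 trophoblast factors and 1 to 3 inducers lower; and a Gata3 to Gata2 difference of 0.80 to 2.81. The reads of Elf5 and Cdx2 limit their precision. Leaving out a wild-type library leaves 1, assumed to vary like the knockout lines. The sum over rows of a symbol was not run, as each gene had 1 row. No paired analysis was possible because no label pairs a Dcr WT with a Dcr KO sample, and the cMyc groups have 1 library each.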
